A study of Homo sapiens with 8 samples.

Results

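The 10 metallothionein genes *MT1A*, *MT1B*, *MT1E*, *MT1F*, *MT1G*, *MT1H*, *MT1M*, *MT1X*, *MT2A* and *MT3* were examined on one-color expression arrays of HCT116 cells, a human colorectal cancer line. They were picked by the gene name that the array files give for each probe, which yielded 13 of the 50599 distinct probes, with a pair of probes each for *MT1E*, *MT1H* and *MT1X*. Of the 27287 probes bright enough to be tested, 13 were metallothionein probes, so every member entered the tests. CONT1 and CONT2 were clones stably carrying the vector pcDNA6.2-GW/EmGFP-miR-neg, and TET1-KD1 and TET1-KD2 were clones carrying the same kind of vector with different artificial miRNAs against *TET1*, a gene whose enzyme oxidizes 5-methylcytosine. All 4 clones were selected with G418, and each of them was grown without drug and with 1 µM 5-aza-dC, kept on for 72 h and renewed daily. 5-aza-dC is a nucleoside analog that traps DNA methyltransferases and thereby lowers DNA methylation. Each condition thus held 2 arrays from 2 clones, and every line was 1 clone, so the spread within a condition is that between clones. The array titles were followed for the treatment, because a separate field in the labels assigns mock treatment to every control array and 5-aza-dC to every knockdown array.

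Metallothioneins are very small, cysteine-rich proteins that bind zinc and copper and sequester cadmium. Most of the human genes stand in a row on the long arm of chromosome 16, and they arose by duplication, so their coding sequences are closely alike. Their transcription is driven by the zinc-sensing factor MTF1, which binds metal response elements in their promoters, and it also rises under glucocorticoids and oxidative stress. *MT2A* and the *MT1* genes are used in many tissues, *MT3* is known as the brain form, and *MT1G* is known as a gene whose promoter is often methylated in tumors.

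Several facts about the arrays bear on all values given here. The 4 untreated arrays and both treated knockdown arrays shared 1 slide, whereas both treated control arrays were on another slide scanned 230 days later. Slide and condition therefore cannot be told apart wherever the treated control clones are involved, while the drug effect in the knockdown clones and the comparison of untreated clones lie within 1 slide. The 6 spike-in transcripts with a log2 signal of at least 9 read 0.04 to 1 log2 units lower on the later slide, with an SD of at most 0.05 among the arrays of the first. On each array, 29490 to 34276 spots exceeded the background and none was saturated. The brightest *TET1* probe, which checks the knockdown, had log2 signals of 9.70 (CONT1), 9.75 (CONT2), 8.65 (TET1-KD1) and 9.41 (TET1-KD2). After 5-aza-dC it had 9.64 in both control clones, 8.99 in TET1-KD1 and 9.48 in TET1-KD2. *TET1* was thus lower in both knockdown clones, mainly in TET1-KD1, but the difference of -0.69 (SE 0.29) between untreated groups was not significant (adjusted p = 0.61, limma). By RT-qPCR, the authors reported reduced *TET1* mRNA in both knockdown clones, more so in TET1-KD1.

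Epithelial identity was checked on 10 colorectal markers, of which 8, among them *EPCAM*, *CDH1* and *KRT8*, were above background on all 8 arrays. *VIL1* and *LGALS4* were above background on 2 and 5 arrays. The summed signals of markers of other cell types were higher with the drug. The summed linear signal of 5 immune markers was 457 to 481 in untreated control clones, 477 to 858 in untreated knockdown clones, 2001 to 2536 in treated control clones and 1511 to 2115 in treated knockdown clones. That of 4 endothelial markers went from 119 to 120 up to 243 to 269 in the control clones and from 101 to 112 up to 197 to 290 in the knockdown clones. That of 6 fibroblast markers went from 346 to 376 up to 675 to 906 in the control clones and from 351 to 456 up to 646 to 789 in the knockdown clones. *KDR*, *COL1A2*, *COL3A1* and *LUM* were below background on every array, and the epithelial sum lay between 334529 and 405406 throughout. The brightest markers, *KRT19* and *KRT18*, weigh most in that sum. Of 9 epithelial markers tested, 2 rose and 3 fell in the control clones, where 19.2% and 22.6% of all tested probes did. *ELF3* (-2.41, adjusted p = 0.00246, limma), *EPCAM* (-0.89, adjusted p = 0.0416) and *KRT8* (-0.75, adjusted p = 0.0423) fell, and *LGALS4* and *KRT18* rose. Single markers of the other cell types did not all go up. The endothelial *CDH5* had 6.24 and 6.11 in untreated and 4.93 and 3.23 in treated CONT1 and CONT2, and it fell by 2.10 on the log2 scale (adjusted p = 0.019, limma). It was above background on 7 arrays. The treated CONT2 value lay under 4.6, the lowest signal above background on that array, so the fall rests partly on a bound. The part of these changes in the metallothionein results was not tested.

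How far a probe reads 1 metallothionein gene alone depends on its sequence. Upstream and downstream below refer to the places of 2 probes of a gene along its transcript. The upstream *MT1H* probe shared an unbroken run of 27 bases with the *MT1A* probe, with 91.3% identity over the 46 bases that can be aligned without gaps, and a run of 26 bases with the upstream *MT1X* probe, with 94.3% identity over 35 bases. These probes are shown because their values cannot be assigned to 1 gene from the sequence. The capitals mark the run shared with the upstream *MT1X* probe in the *MT1H* line, with the upstream *MT1H* probe in the *MT1X* and *MT1A* lines.
MT1H upstream, chr16:56704448-56704833 of hg19, plus strand: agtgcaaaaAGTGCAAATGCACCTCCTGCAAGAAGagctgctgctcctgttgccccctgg
MT1X upstream, chr16:56717082-56717141, plus strand: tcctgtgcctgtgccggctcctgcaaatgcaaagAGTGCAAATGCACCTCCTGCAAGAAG
MT1A, chr16:56673205-56673808, plus strand: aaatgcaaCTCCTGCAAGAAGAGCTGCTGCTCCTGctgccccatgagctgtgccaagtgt
The *MT1H* and *MT1A* probes span 386 and 604 bases of the genome although each is 60 bases long. No annotation of hg19 was used here, so exons and untranslated regions are not assigned.

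The probes for *MT1G* and the downstream end of *MT1H* shared shorter runs. Their longest run in common with any other metallothionein probe was 10 bases, which they shared with each other. The downstream *MT1H* probe nevertheless matched the *MT1F* probe at 46 of 60 bases (76.7%) and the downstream *MT1X* probe at 44 of 60 (73.3%), and the *MT1B* probe at 76.7% of 30 bases. Only ungapped overlaps of at least 30 bases were scored, and for each pair the one with the most matching bases was kept. Of these, the highest identity of the *MT1G* probe was 68.4%, with that of *MT1M* over 38 bases. Shorter overlaps were not scored. In the lines below, the end of the downstream *MT1H* probe and the start of the *MT1G* probe also resemble each other before the capitals. They are shown because both drug-induced signals of the family come from them, together with the *MT1X* and *MT1F* probes that resemble them at the end. The capitals mark the run shared with the *MT1G* probe in the *MT1H* line and with the downstream *MT1H* probe in the others.
MT1H downstream, bases 31 to 60, chr16:56704932-56704961, plus strand: cagaatgacacgtaaaatccAGGATTTTTT
MT1G, bases 1 to 30, chr16:56700723-56700752, minus strand: cccgtaaaatctAGGATTTTTTgttttttg
MT1X downstream, bases 31 to 60, chr16:56717992-56718021, plus strand: tagagcaacctatataaacctGGATTTTTT
MT1F, bases 31 to 60, chr16:56693107-56693136, plus strand: cagagagacatgtacaaacctGGATTTTTT
The *MT1M* and *MT2A* probes shared at most 7 bases with another member probe, the *MT3* probe at most 8. The *MT1F* and downstream *MT1X* probes matched at 81.7% of 60 bases with a longest run of 15, the *MT1B* and upstream *MT1E* probes at 83.1% of 59 bases with a longest run of 17. The *MT1E* probes overlapped each other by 30 bases and matched at 29 of them. No probe of the array outside the family shared 20 or more bases with a member probe. Probes were compared with each other and not with the transcripts of other members, and cross-hybridization was not tested.

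In untreated cells, 11 of the 13 probes were above background on every array, and 2 were not above background on any. The silent pair was *MT1G* and the downstream probe of *MT1H*. Both metallothionein signals that 5-aza-dC raised past the threshold were these. The other 11 probes differed by about 1 log2 unit or less between the arrays of every clone, as the plot of all signals shows.

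**Figure D1:**
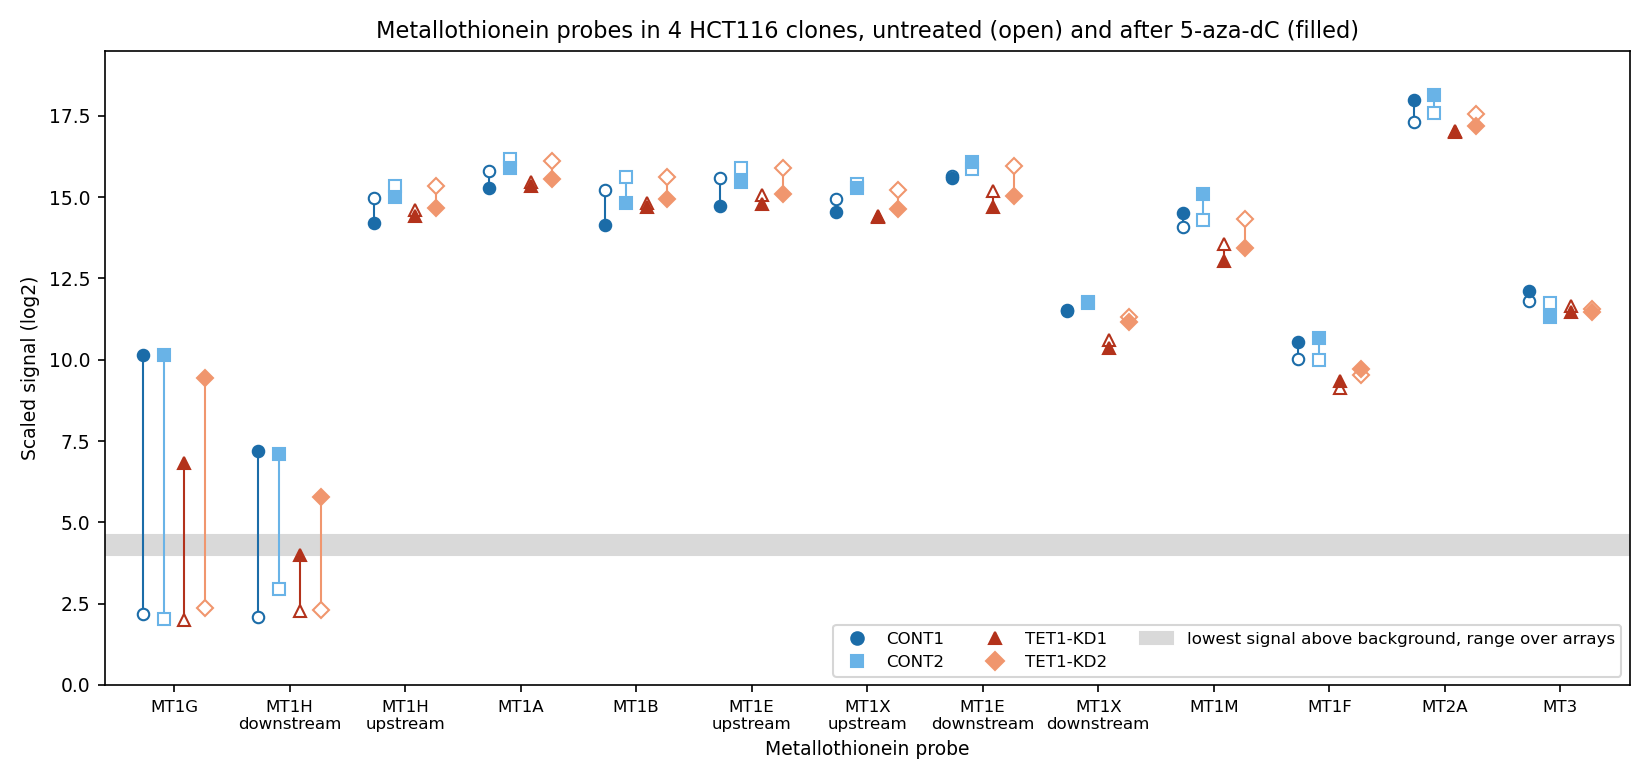
Log2 scaled signals of the 13 metallothionein probes (y axis) on the 8 arrays, with a symbol for each clone, open when untreated and filled after 5-aza-dC, and a line joining the arrays of a clone; the gray band spans the lowest signal above background on each array, 3.98 to 4.61. MT1G rose from below the band, from 2.38 or less to between 6.83 and 10.15. The downstream MT1H probe rose from below the band to above it except in TET1-KD1, where its treated signal of 4.0 was not above background. The other 11 probes stayed far above the band.

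*MT1G* (chr16:56700693-56700752, minus strand) was the metallothionein with the clearest response. Its untreated log2 signals were 2.18 (CONT1), 2.02 (CONT2), 1.99 (TET1-KD1) and 2.38 (TET1-KD2), none of them well above background. After 5-aza-dC they were 10.15 (CONT1), 10.13 (CONT2), 6.83 (TET1-KD1) and 9.43 (TET1-KD2), all above background. Every treated array lay above every untreated one, both control clones reached nearly the same level, and TET1-KD1 stayed lowest. Since the untreated signal is only a bound, the rise was at least 56.8-fold in the control clones (adjusted p = 0.000652, limma) and at least 13.3-fold in the knockdown clones (adjusted p = 0.00445). These bounds set the mean of the treated arrays against the lowest signal above background on the untreated ones. Clone by clone, the rise was at least 54.2-fold (CONT1), 59.5-fold (CONT2), 6.22-fold (TET1-KD1) and 28.4-fold (TET1-KD2). Whether more cells carried the transcript or each cell carried more of it cannot be told apart in bulk RNA.

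The downstream *MT1H* probe (chr16:56704902-56704961) behaved in the same way at lower signals. It read 2.09 (CONT1), 2.96 (CONT2), 2.26 (TET1-KD1) and 2.30 (TET1-KD2) without the drug, none well above background. With the drug it read 7.20 (CONT1), 7.10 (CONT2), 4.0 (TET1-KD1) and 5.78 (TET1-KD2), the TET1-KD1 value again not being well above background. The order of the treated clones was that of *MT1G*. The rise was at least 7.14-fold in the control clones (adjusted p = 0.00183, limma), at least 7.02-fold in CONT1 and 7.27-fold in CONT2. Of the 2 treated knockdown arrays only that of TET1-KD2 was above background, with a rise of at least 2.25-fold, so the knockdown clones have no joint bound. Their difference as measured, 2.61 on the log2 scale, passed the threshold (adjusted p = 0.0367, limma) but rests partly on values not above background. That call was lost without any 1 of 7 arrays, every array but treated TET1-KD1, with adjusted p-values of 0.0544 to 0.122, and within the first slide alone (adjusted p = 0.072).

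With these, 2 of the 13 metallothionein probes rose in the control clones, 2 rose in the knockdown clones, and none fell. Over all tested probes, 19.2% rose and 22.6% fell in the control clones, and 8.91% rose and 2.9% fell in the knockdown clones. The count in the control clones was therefore not above that of all probes, and both probes were tested only because of their treated arrays, so the counts support nothing further. The median response of the 13 probes was -0.05 (CONT1), -0.02 (CONT2), -0.13 (TET1-KD1) and -0.54 (TET1-KD2), beside -0.08 to -0.06 for all tested probes. When the clone was added as a block, so that each treated array was set against the untreated array of its clone, 6 of the 13 probes differed in the control clones, where 50.4% of all probes did. The 4 added were *MT1B* (-0.96, adjusted p = 0.0197, limma), *MT1F* (0.61, adjusted p = 0.021), *MT2A* (0.60, adjusted p = 0.0315) and *MT1M* (0.60, adjusted p = 0.0466). With the GC trend of the probes removed as well, 3 probes passed, and *MT1B* (-0.40, adjusted p = 0.171), *MT2A* (0.33, adjusted p = 0.112) and *MT1M* (0.25, adjusted p = 0.257) did not. Without untreated TET1-KD1 or without untreated TET1-KD2 in the unpaired fit, 5 probes passed, *MT1B*, *MT1F* and *MT2A* being those added. The paired fit made no further call in the knockdown clones.

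The upstream probe of *MT1H*, which lies just before the induced one, was lower after the drug in every clone. Its log2 signals were 14.97 (CONT1), 15.35 (CONT2), 14.59 (TET1-KD1) and 15.33 (TET1-KD2) when untreated. After 5-aza-dC they were 14.19, 14.99, 14.41 and 14.66 in the same order. The differences of -0.57 (SE 0.36, adjusted p = 0.246) in the control clones and -0.42 (SE 0.36, adjusted p = 0.501) in the knockdown clones were not significant in limma. The probes named for *MT1H* thus disagreed, one absent without the drug and induced by it, the other present throughout. Over the 8 arrays the upstream *MT1H* probe ran with *MT1A* and the upstream *MT1E* probe (Pearson r = 0.99 with each), with *MT1B* (0.93) and with the upstream *MT1X* probe (0.91). These are descriptions over 8 arrays that share clones, slides and a GC content.

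*MT1A*, *MT1B* and the upstream probes of *MT1E*, *MT1H* and *MT1X* all had 55% GC, while the other probes but *MT3* (53.3%) had 30% to 43.3%. All 5 were lower after the drug in all 4 clones, and none passed the test. *MT1A* differed by about as much as the clones did among themselves, going from 15.80 and 16.16 to 15.28 and 15.89 in CONT1 and CONT2, and from 15.46 and 16.11 to 15.34 and 15.57 in TET1-KD1 and TET1-KD2. *MT1B* had the largest difference of the 5 in the control clones, from 15.23 and 15.63 to 14.14 and 14.81 (-0.96, SE 0.34, adjusted p = 0.0671, limma), and went from 14.83 and 15.61 to 14.70 and 14.94 in the knockdown clones (-0.40, adjusted p = 0.512). The control groups of *MT1B* did not overlap, the knockdown groups did. Control responses on the later slide varied with probe GC content, and removing that trend took *MT1B* from -0.96 to -0.40, *MT1A* from -0.40 to 0.16, upstream *MT1E* from -0.64 to -0.08, upstream *MT1H* from -0.57 to -0.01 and upstream *MT1X* from -0.27 to 0.29. The direction of *MT1A* and upstream *MT1X* in the control clones therefore turned with this correction. In the knockdown clones the 5 responses stayed between -0.49 and -0.29 with it.

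**Figure D2:**
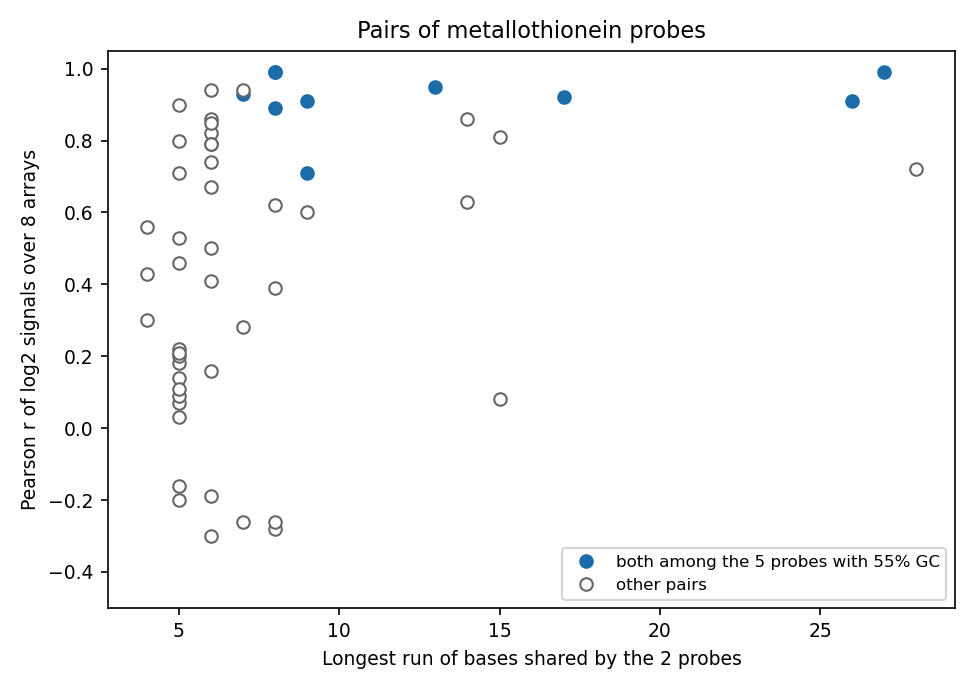
Pairs among the 11 probes above background on all arrays, with the longest run of bases shared by the probes of a pair on the x axis and the Pearson correlation of their log2 signals over 8 arrays on the y axis; filled points are pairs among the 5 probes with 55% GC. Pairs with short runs reached 0.99 and 0.94 as well, and the pair with the longest run, 28 bases between the MT1E probes, had 0.72.

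*MT2A*, *MT1M* and *MT1F* leaned upwards in the control clones instead. *MT2A* (chr16:56643332-56643391) encodes metallothionein 2, which is made in many tissues. It read 17.32 (CONT1), 17.60 (CONT2), 17.04 (TET1-KD1) and 17.56 (TET1-KD2) untreated, and 17.99, 18.13, 16.99 and 17.18 with the drug. The treated control clones were above all other arrays and the treated knockdown clones were within or below the untreated range. The response was 0.60 (SE 0.22, adjusted p = 0.072, limma) in the control clones and -0.22 (SE 0.22, adjusted p = 0.576) in the knockdown clones. *MT1M* (chr16:56667810-56667869) read 14.08, 14.30, 13.57 and 14.32 in CONT1, CONT2, TET1-KD1 and TET1-KD2 untreated, and 14.50, 15.08, 13.03 and 13.42 with the drug. Both control clones were higher and both knockdown clones lower after the drug, by 0.60 (SE 0.32, adjusted p = 0.176, limma) and -0.72 (SE 0.32, adjusted p = 0.21).

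*MT1F* (chr16:56693077-56693136) was the remaining member of this kind. Its signals were 10.01, 9.98, 9.13 and 9.53 untreated and 10.54, 10.68, 9.34 and 9.70 after 5-aza-dC, in the same order of clones. It was higher after the drug in all 4 clones, by 0.61 (SE 0.20, adjusted p = 0.0538, limma) in the control and 0.19 (SE 0.20, adjusted p = 0.602) in the knockdown clones. *MT1M* and *MT2A* ran together over the 8 arrays (r = 0.94), as did *MT1F* and *MT2A* (r = 0.90). The probes of *MT1M* and *MT2A* share at most 7 bases with any other member probe, but they were not compared with the members' transcripts. With the GC trend removed, the control responses were 0.33 for *MT2A*, 0.25 for *MT1M* and 0.47 for *MT1F*.

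**Figure D3:**
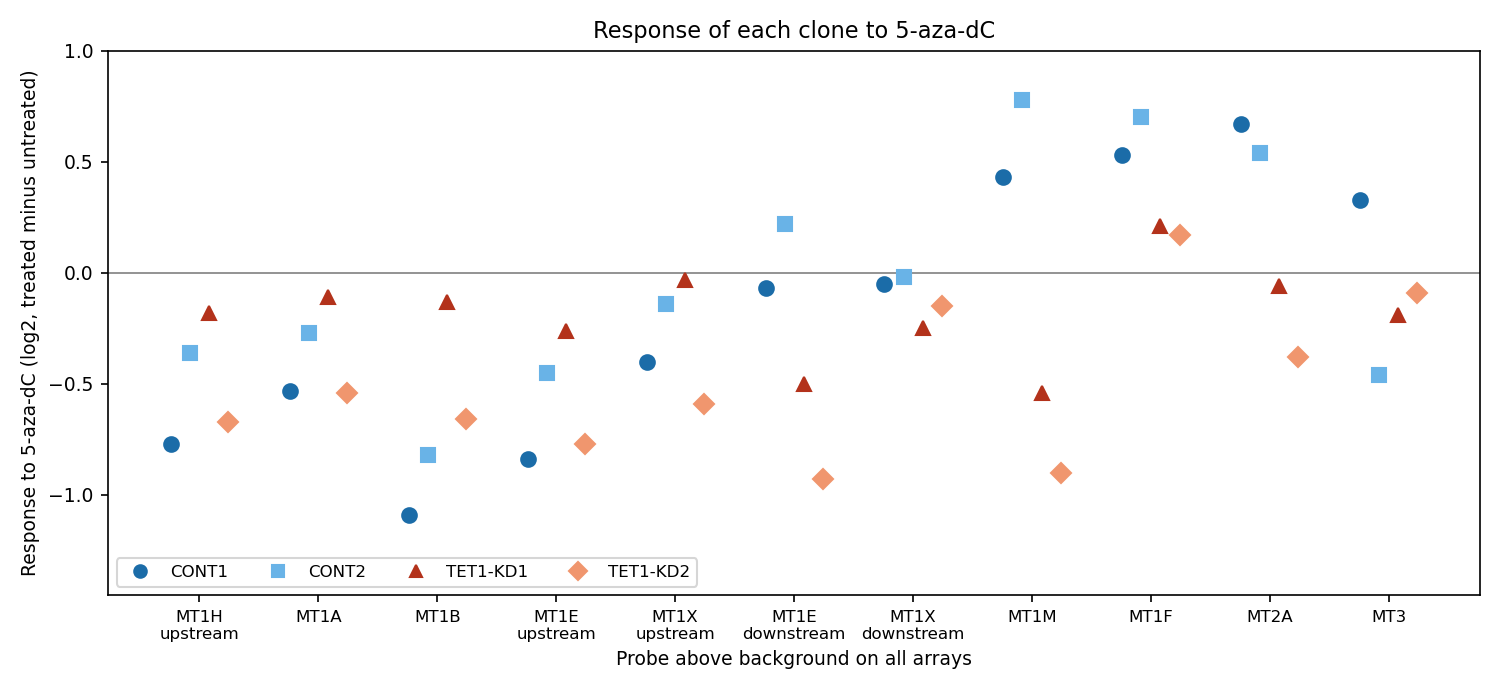
Response to 5-aza-dC, treated minus untreated log2 signal (y axis), of each clone for the 11 probes above background on all arrays; each point is 1 clone. In the knockdown clones 10 of the 11 points were below 0 in each clone, and MT1M and MT2A were above 0 in both control clones and below 0 in both knockdown clones.

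The downstream *MT1E* probe (chr16:56660883-56660942) read 15.66, 15.87, 15.20 and 15.95 untreated and 15.60, 16.09, 14.70 and 15.03 with the drug. Its response was 0.08 (SE 0.31, adjusted p = 0.856, limma) in the control clones and -0.71 (SE 0.31, adjusted p = 0.197) in the knockdown clones, both of which went down. The upstream *MT1E* probe (chr16:56660853-56660912), shifted by 30 bases, read 15.58, 15.91, 15.06 and 15.88 untreated and 14.74, 15.46, 14.80 and 15.11 with the drug. Before any correction for GC content, the *MT1E* probes therefore differed in the control clones. These were both lower after the drug with the upstream probe but had responses of -0.07 and 0.22 with the downstream one. With the GC trend removed, the control response was -0.08 for the upstream and -0.06 for the downstream probe. In the knockdown clones the *MT1E* probes had the same direction. The upstream *MT1X* probe read 14.93, 15.40, 14.42 and 15.22 untreated and 14.53, 15.27, 14.39 and 14.63 treated. The downstream *MT1X* probe (chr16:56717962-56718021) read 11.54, 11.77, 10.62 and 11.31 untreated and 11.49, 11.75, 10.37 and 11.16 treated. Treated and untreated groups of *MT1X* overlapped in both kinds of clone and with both probes.

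*MT3* (chr16:56624933-56624991), the brain form, was above background on every array. It had 11.79, 11.75, 11.66 and 11.57 untreated and 12.12, 11.30, 11.47 and 11.48 treated in CONT1, CONT2, TET1-KD1 and TET1-KD2. The control clones moved in opposite directions, and the responses were -0.07 (SE 0.27, adjusted p = 0.862, limma) and -0.14 (SE 0.27, adjusted p = 0.79). The control response of *MT3* turned to 0.36 with the GC trend removed and to 0.08 with spike-in scaling. That of the downstream *MT1E* probe turned to -0.06 and -0.03, and to -0.13 with quantile normalization. Counting by sign among the 11 probes always above background, 7 were lower after the drug in CONT1 and 7 in CONT2, where 56.2% and 55.9% of all such probes were. In TET1-KD1 and in TET1-KD2, 10 were lower, where 61.5% and 61.7% of all such probes were. *MT1F* was the exception in both knockdown clones.

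Without the drug, *TET1* knockdown and control clones did not differ at any metallothionein probe in limma. Of all tested probes 0.0147% were called in this comparison, 4 in number, and 2253 had an unadjusted p under 0.05, among them 1 of the 13 metallothionein probes. That was *MT1F*, with a knockdown minus control difference of -0.67 (SE 0.20, adjusted p = 0.526), both knockdown clones lying below both control clones. The difference of the downstream *MT1X* probe was -0.69 (SE 0.34, adjusted p = 0.63), also with no overlap. For the other 9 probes above background on all arrays, the difference was -0.35 to -0.16. Their 95% intervals reached from -1.23 to 0.67 at the widest. Among them *MT3* also had no overlap, with 11.66 and 11.57 in the knockdown and 11.79 and 11.75 in the control clones. The share of all tested probes without overlap was not counted.

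The knockdown clones were not alike. TET1-KD1 was below the mean of the control clones at all 11 probes, by 0.11 to 1.04 log2 units with a median of -0.60, where 46.1% of all probes above background were below. TET1-KD2 was below at 3 of the 11, *MT1F*, *MT3* and the downstream *MT1X* probe, with a median of 0.13. TET1-KD1 minus TET1-KD2 was negative at 10 of the 11 probes, the exception being *MT3*, with a median of -0.75. For all probes that median was 0.01. TET1-KD1 also had the lower *TET1* signal of the 2 clones, carries another miRNA and is 1 clone, which cannot be told apart here.

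After 5-aza-dC, 4 of the 13 metallothionein probes were lower in the knockdown clones than in the controls and none was higher. Of all tested probes, 6.91% were lower and 11.9% higher. *MT1M* was 2.96-fold lower (log2 difference -1.57, SE 0.32, adjusted p = 0.0234, limma), *MT1F* 2.13-fold lower (-1.09, SE 0.20, adjusted p = 0.018) and *MT2A* 1.97-fold lower (-0.98, SE 0.22, adjusted p = 0.0314). The downstream *MT1H* probe was lower by 2.26 on the log2 scale (SE 0.58, adjusted p = 0.0427), with 1 of the 2 knockdown arrays above background. This probe was tested only because both treated control arrays, where it was high, were above background, and without a filter on dim probes it missed the threshold (adjusted p = 0.0676), as did *MT2A* (adjusted p = 0.0603). For each of the 4, both knockdown arrays lay below both control arrays, and so they did for the downstream *MT1E* and *MT1X* probes. How many of all tested probes were separated in this way was not counted, so the separation supports nothing further. *MT1G* also did not overlap, with 6.83 and 9.43 against 10.15 and 10.13, yet its difference of -2.01 (SE 0.76, adjusted p = 0.114) missed the threshold, with TET1-KD1 and TET1-KD2 far apart.

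**Figure D4:**
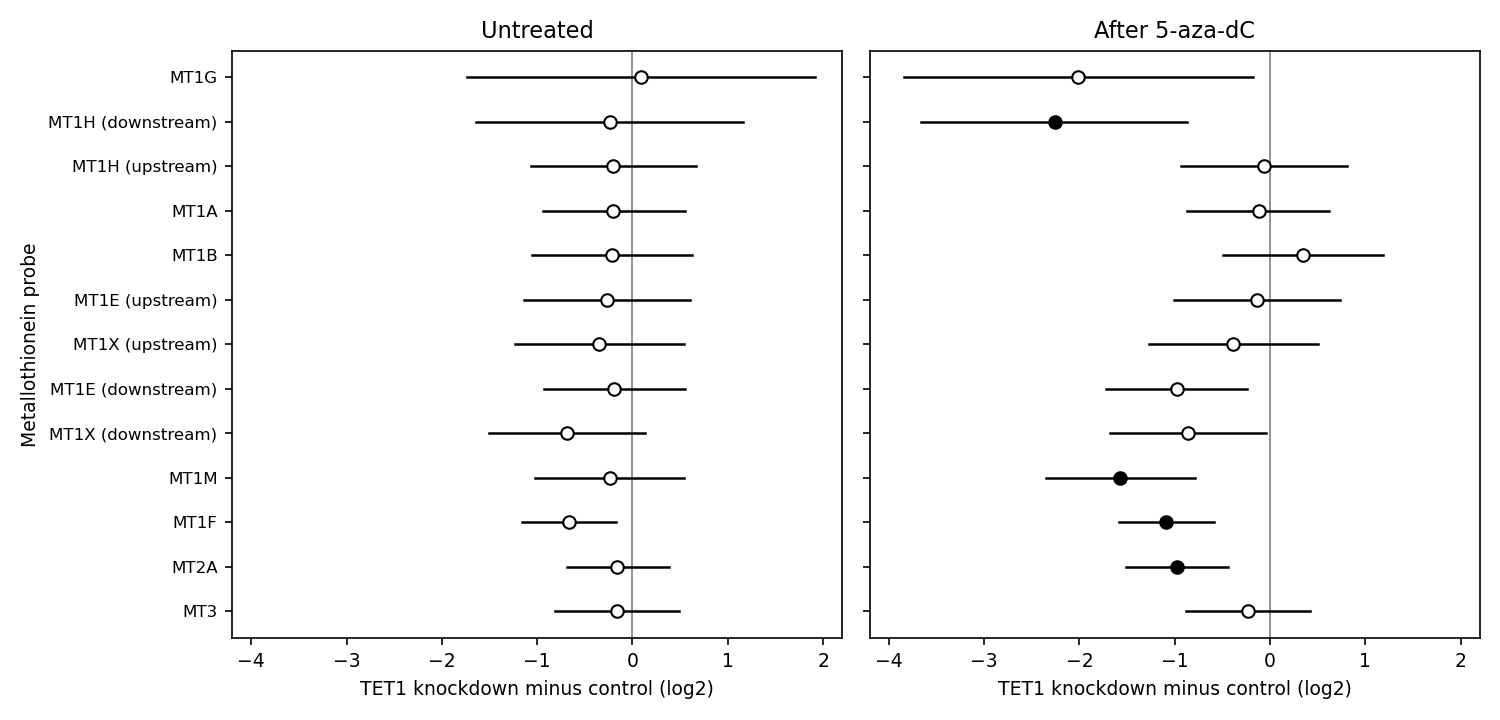
Knockdown minus control difference in log2 signal (x axis) with its 95% interval from limma for each of the 13 probes (y axis), untreated on the left and after 5-aza-dC on the right; filled points had an adjusted p below 0.05, with n = 2 clones per group. No point is filled on the left, and MT1H downstream, MT1M, MT1F and MT2A are filled on the right.

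In the same comparison the downstream probes of *MT1E* (-0.98, SE 0.31, adjusted p = 0.0731, limma) and *MT1X* (-0.86, SE 0.34, adjusted p = 0.128) were lower without passing, while *MT1A*, *MT1B*, *MT3* and the upstream probes of *MT1E*, *MT1H* and *MT1X* differed by -0.39 to 0.35. Relative to the mean of the treated control clones, TET1-KD1 was lower at 10 of 11 probes (median -0.51) and TET1-KD2 at 8 of 11 (median -0.27), where 47% and 49.9% of all such probes were lower. Both treated control arrays were on the later slide, so knockdown and slide cannot be told apart in this comparison. *MT2A* depended on the scaling, with -0.46 (adjusted p = 0.195) after quantile normalization and -0.52 (adjusted p = 0.16) after scaling to the spike-ins. Single arrays also decided calls. The count of 4 became 2 without untreated CONT1 or CONT2, 1 without treated CONT1, and 0 without treated CONT2 or treated TET1-KD1. *MT1F* lost its call without treated CONT1 (adjusted p = 0.056), CONT2 (0.0782) or TET1-KD1 (0.0782), and *MT1M* without treated CONT2 (0.098), TET1-KD1 (0.104) or TET1-KD2 (0.0516). *MT2A* lost it without any array except the untreated knockdown ones (0.0594 to 0.124), and the downstream *MT1H* probe without any except treated TET1-KD2 (0.0646 to 0.143).

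Whether the response to the drug itself differed between the kinds of clone was tested by the interaction. No metallothionein probe passed, where 5.58% of all tested probes (1522) did. An unadjusted p under 0.05 in limma was found at 3 of the 13 and at 6742 of all 27287 tested probes. These shares are alike, so the count of 3 supports nothing further. The knockdown response minus the control response was -1.32 for *MT1M* (SE 0.46, adjusted p = 0.144, limma), -0.82 for *MT2A* (SE 0.31, adjusted p = 0.175) and -2.02 for the downstream *MT1H* probe (SE 0.82, adjusted p = 0.194). It was -2.10 for *MT1G* (SE 1.07, adjusted p = 0.282), whose responses as measured were 7.98 (CONT1), 8.11 (CONT2), 4.84 (TET1-KD1) and 7.06 (TET1-KD2). The untreated signals of *MT1G* and of the downstream *MT1H* probe were not above background, so these differences rest on values that are only bounds. As bounds, the responses of *MT1G* were at least 5.76 (CONT1), 5.89 (CONT2), 2.64 (TET1-KD1) and 4.83 (TET1-KD2). Single arrays moved both differences. That of *MT1G* was -3.40 (adjusted p = 0.0363) without treated TET1-KD2 and -0.80 (adjusted p = 0.196) without treated TET1-KD1, and that of the downstream *MT1H* probe was -2.92 (adjusted p = 0.0547) and -1.13 (adjusted p = 0.236). The control side of these differences compares 2 slides.

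Promoters were examined for the members with an entry in the set of promoter sequences at hand (RefSeq, GRCh38.p14), taking the 250 bases before each start. The metal response element core was searched as TGCGCNC and TGCACNC on both strands, and no matches overlapped. *MT1H* had 8 matches, *MT2A* 7, *MT1X* 4 and *MT1B* 3. The other 6 members, *MT1G* among them, had no entry in that set, so their promoters were not examined. Of 35116 promoters of this length, 24.8% held at least 1 match, 0.0171% at least as many as *MT1H*, 0.0313% as many as *MT2A*, 0.37% as many as *MT1X* and 1.58% as many as *MT1B*. CpG dinucleotides numbered 32 in *MT2A*, 22 in *MT1H*, 22 in *MT1X* and 7 in *MT1B*, beside a median of 11. At least as many were found in 9.52% of all promoters for *MT2A*, 28% for *MT1H* and *MT1X* and 58.9% for *MT1B*. The promoters of *MT2A*, read at high signals in all clones, and of *MT1H*, whose downstream probe was not above background without the drug, are shown with the matches in capitals.
MT2A promoter, chr16:56608334-56608583 of GRCh38.p14, plus strand: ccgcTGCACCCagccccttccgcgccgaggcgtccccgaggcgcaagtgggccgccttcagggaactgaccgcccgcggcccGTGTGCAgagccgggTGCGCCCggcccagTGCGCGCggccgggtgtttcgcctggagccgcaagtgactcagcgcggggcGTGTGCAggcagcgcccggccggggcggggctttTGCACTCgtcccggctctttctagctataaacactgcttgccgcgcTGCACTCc
MT1H promoter, chr16:56669564-56669813 of GRCh38.p14, plus strand: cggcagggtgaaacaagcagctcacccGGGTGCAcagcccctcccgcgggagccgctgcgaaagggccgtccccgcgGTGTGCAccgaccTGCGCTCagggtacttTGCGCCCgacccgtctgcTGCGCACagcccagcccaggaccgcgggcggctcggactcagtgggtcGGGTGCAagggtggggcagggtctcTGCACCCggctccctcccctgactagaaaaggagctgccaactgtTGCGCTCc
Few promoters held as many element matches as these, while the CpG number of *MT1H* was common. A match is a description of the sequence, and neither binding nor methylation was measured on these arrays.

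Of 11 other metallothionein genes and pseudogenes listed, 4 were on the array and 2 were tested. The pseudogene *MT1DP* had 6.60, 6.23, 5.91 and 5.68 in CONT1, CONT2, TET1-KD1 and TET1-KD2 untreated, and 6.02, 5.65, 4.66 and 4.41 with the drug. It was lower after the drug in all 4 clones, past the threshold in the knockdown clones (-1.26, SE 0.22, adjusted p = 0.0155, limma) and not in the control clones (-0.58, SE 0.22, adjusted p = 0.0762). After the drug it was lower in the knockdown clones than in the controls (-1.30, SE 0.22, adjusted p = 0.0129). *MT1L* did not pass in any comparison, and *MT4* and *MT1IP* were not above background on any array.

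Of 25 genes of zinc sensing and transport, 20 were tested, and 5 rose and 6 fell in the control clones while 1 rose and 3 fell in the knockdown clones. For these and the following lists, the shares over all probes were 19.2% up and 22.6% down in the control clones and 8.91% up and 2.9% down in the knockdown clones. The median responses of the zinc genes were -0.29 and -0.24, beside -0.08 and -0.07 for all probes. *SLC30A2*, which loads zinc into vesicles, was not well above background on any untreated array. It rose at least 7.21-fold (adjusted p = 0.0142, limma) in the control and at least 3.08-fold (adjusted p = 0.0383) in the knockdown clones. This gene was tested only because of its treated arrays, where it was high, so its place among the rising genes supports nothing further. The zinc importers *SLC39A11* and *SLC39A3* fell by 1.36 (adjusted p = 0.000925) and 1.24 (adjusted p = 0.00315) in the control clones, and by 0.79 (adjusted p = 0.0175) and 0.80 (adjusted p = 0.0394) in the knockdown clones. *MTF1*, which switches the metallothioneins on, had 9.56 and 9.63 in untreated and 10.07 and 10.13 in treated CONT1 and CONT2 (0.50, SE 0.14, adjusted p = 0.0275). In TET1-KD1 and TET1-KD2 it had 9.80 and 9.72 untreated and 9.51 and 9.48 treated (-0.26, SE 0.14, adjusted p = 0.267). After the drug it was lower in the knockdown clones (-0.60, SE 0.14, adjusted p = 0.0307), and the difference in response was -0.77 (SE 0.19, adjusted p = 0.0756). *MTF1* was named here because it is the factor of this family, beside the 3 genes with the largest changes.

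Among 9 tested genes of copper handling, 3 fell and none rose in the control clones, and 1 fell in the knockdown clones. The metalloreductase *STEAP3* fell in both, by 1.57 (SE 0.19, adjusted p = 0.00161, limma) and 0.92 (SE 0.19, adjusted p = 0.0295). The copper importer *SLC31A1* fell by 0.83 (adjusted p = 0.016) in the control clones. *SLC31A2* fell by 0.51 (adjusted p = 0.0281) in the control clones and was higher in the knockdown clones after the drug (0.60, adjusted p = 0.0325). Of 11 tested genes of the oxidative stress factor NRF2, 1 rose and 4 fell in the control clones and 2 fell in the knockdown clones. *NQO1* fell by 1.67 (SE 0.24, adjusted p = 0.00307) in the control clones. *GCLM*, a subunit of the enzyme that makes the glutathione precursor, fell by 1.29 (SE 0.16, adjusted p = 0.00201) there. The response of *GCLM* differed between the kinds of clone by 1.30 (SE 0.23, adjusted p = 0.0347, limma). No interaction passed in the zinc or copper lists.

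Of 8 glucocorticoid response genes, 2 rose and 1 fell in the control clones and none passed in the knockdown clones, with medians of 0.52 and 0.48. *SGK1* and *DUSP1* rose by 2.11 (SE 0.58, adjusted p = 0.0289, limma) and 1.57 (SE 0.33, adjusted p = 0.0121), and *FKBP5* fell by 1.14 (SE 0.33, adjusted p = 0.0352). Of 8 tested genes listed as neighbors of the cluster on chromosome 16, 1 rose and 4 fell in the control clones and none passed in the knockdown clones. *GNAO1* was at least 1.24-fold lower (adjusted p = 0.00237), its treated control arrays not being well above background. *CES1* fell by 1.29 (SE 0.20, adjusted p = 0.00373) and *NUDT21* fell by 1.21 (SE 0.31, adjusted p = 0.0223). None of the genes in any of these lists passed between untreated knockdown and control clones. The control responses again compare 2 slides.

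The genes whose signals over the 8 arrays were most like the family were found by correlation with the mean of the 9 members above background on all arrays, each by its brightest probe and centered. That mean was 0.10 (CONT1), 0.35 (CONT2), -0.33 (TET1-KD1) and 0.26 (TET1-KD2), and 0, 0.37, -0.50 and -0.25 after 5-aza-dC. TET1-KD1 was thus low in both states and TET1-KD2 after the drug. Of 7615 genes ranked, the closest were *SIM2* (r = 0.984), *MT1L* (0.982), *LEPREL2* (0.977), *BCAS3* (0.976) and *PAQR5* (0.956), over 8 arrays that share clones and slides. *MT1L* had 15.75, 16.19, 15.27 and 16.15 untreated and 15.66, 16.34, 15.18 and 15.38 treated in the same order of clones. *SIM2*, a transcription factor gene, had 7.55, 7.75, 6.27 and 7.57 untreated and 7.02, 7.74, 6.0 and 6.63 treated. Both were lowest in treated TET1-KD1.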

How the data were processed

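Per the labels, total RNA was labeled with Cy3 and hybridized to SurePrint G3 arrays. The authors deposited spot intensity values from Feature Extraction 10.7.3.1, background-subtracted and not normalized between arrays; their value table repeats these intensities within 0.497%. Outlier-flagged spots were dropped, spots of a probe averaged, intensities scaled to each array's 75th percentile, values under 1 set to 1, and log2 taken. A probe was tested if above background on both arrays of a condition. limma 3.58.1 (R 4.3.3) was fitted to all 8 arrays as 4 conditions, with Benjamini-Hochberg adjustment over 27287 probes and a threshold of 0.05. The fit was tested on simulated data. Clones pair treated and untreated arrays by the titles; their deviations correlated with r = 0.198 (control) and 0.476 (knockdown). For the other gene lists, the brightest probe stood for a gene and up to 3 called genes with the largest changes were named; all members were named. Members and lists were chosen with earlier results of these data known. Only 2 arrays per condition limit precision. Plots used matplotlib 3.10.9. Alternatives are described below.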

Additional observations from a re-analysis of the deposited data

Results flagged for a closer look

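*MT1M* went up with 5-aza-dC in both control clones (0.43 and 0.78 on the log2 scale) and down in both knockdown clones (-0.54 and -0.90). *MT2A* did the same, with 0.67 and 0.54 in the control clones and -0.06 and -0.38 in the knockdown clones. They were singled out because every clone of a kind moved one way and every clone of the other kind the opposite way. The differences in response, -1.32 for *MT1M* (adjusted p = 0.144, limma interaction) and -0.82 for *MT2A* (adjusted p = 0.175), did not pass the threshold. Under the 21 alternatives tried for each they ranged from -1.70 to -0.88 and from -1.08 to -0.32. The alternatives refit the same arrays on which both probes were picked by sign, so the kept sign supports nothing further. How many of all tested probes moved in this way was not counted. With the GC trend removed, the control responses were 0.25 for *MT1M* and 0.33 for *MT2A*. The control responses compare 2 slides, so slide and treatment cannot be told apart in them.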

How the results depend on the processing

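With the drug, 5234 of all tested probes rose and 6168 fell in the control clones. These numbers were 5719 and 4815 with normexp background correction, and 5511 and 6385 with an offset of 50 before the log. With the clone as replicate block they were 6361 and 7385, and with only the 4 arrays compared 5909 and 6690. Beside them, the metallothionein counts that follow support nothing further. The count of metallothionein probes that differed with the drug in the control clones was 2. It was 5 with normexp background correction, 5 with an offset of 50 before the log, 6 with the clone as replicate block, 3 with that block and the GC trend removed, 4 when only the 4 arrays compared were fitted, 1 among probes above background on all 8 arrays, 1 by the methods' t-test and 1 with the brightest probe per gene, and 2 to 5 when 1 array was left out. In the knockdown clones the count of 2 became 1 with normexp, quantile normalization, the offset of 50, no filter on dim probes, only the 4 arrays, the first slide alone and 1 probe per gene, 0 among probes above background on all 8 arrays and 0 by the methods' t-test, and 1 to 2 with 1 array left out. The induction of *MT1G* in the control clones passed under all 21 alternatives (4.21 to 8.43), and in the knockdown clones under 21 of 22, the exception being the methods' t-test (adjusted p = 0.296). The downstream *MT1H* probe passed in the control clones under 20 of 21 (0.0524 by the methods' t-test) and in the knockdown clones under 8 of 22. The 4 probes lower in treated knockdown clones became 2 without a filter on dim probes, 0 with only the 4 arrays and 0 by the methods' t-test, and 0 to 4 with 1 array left out. Between untreated clones the count was 0 under all 14 alternatives and 0 to 0 with 1 array left out. The interaction count of 0 held under all 14, and was 0 to 1 with 1 array left out. Before adjustment, the methods' t-test called 3 and 1 of the 13 probes in the control and knockdown clones. It called 0 and 3 between untreated and treated clones and 0 for the interaction. Of all 27287 tested probes it called 11910, 4500, 1733, 5962 and 6301 in the same order. The metallothionein counts therefore support nothing further. The median response of the members in the control clones, -0.03, was -0.06 with normexp, -0.06 with quantile normalization, 0.09 with spike-in scaling, 0.17 with the GC trend removed, -0.10 over probes above background on all arrays and 0.09 with 1 probe per gene. That of the knockdown clones, -0.34, stayed between -0.38 and -0.21. Where knockdown and control clones are compared, clone numbers are only names, and with the number as replicate block the counts were 0 untreated and 6 treated. The replicate block changed no other count by more than 1.5 times. No called value reversed. The median response of all tested probes in the control clones, -0.08, was -0.20 with quantile normalization and 0.27 with spike-in scaling, beside which the downstream *MT1X* probe had 0.11. The GC correction was not applied to comparisons between clones, the fit of only the compared arrays not to the interaction, and the first slide alone only to comparisons within it. Low signals limit *MT1G* and the downstream *MT1H* probe, whose untreated levels are bounds.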
